A study of Homo sapiens with 60 samples.

Results

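HepG2 cells treated with a hot water extract of licorice (Glycyrrhizae Radix) at 500 µg/mL for 24 h were compared with HepG2 cells treated with a hot water extract of angelica (Angelicae Gigantis Radix) at the same dose and time. HepG2 is an established human hepatocellular carcinoma line that keeps many functions of liver cells. The comparison took every library that the labels give to these extracts at this dose, which is 3 licorice and 3 angelica libraries, 6 of the 60 in the series. The 2 extracts were paired because CYP1A1 mRNA was highest with them among the extracts, so the level of CYP1A1 with either extract is a description and not a test. Libraries of the same extracts at 20 and 100 µg/mL (3 each), ginseng (Panax Ginseng) and peony (Paeoniae Radix) water extracts at 20 µg/mL (3 each), and vehicle (3) were also used. The labels give the vehicle as 0.1% DMSO, the series description gives 2%, and no DMSO is given for the extracts. All cells were the same line, and nothing in the labels says that replicate libraries came from separate cultures, so p-values measure the spread between these libraries.

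The first number in a library's name is 3 for licorice and ginseng and 4 for angelica and peony, here called the sets. Vehicle belongs to neither set. Licorice and angelica were never in the same set, so at 500 µg/mL the extract and the set cannot be told apart. The same pair at 20 µg/mL served as a check: a difference between sets that is equal at both doses drops out when the change from 20 to 500 µg/mL with angelica is subtracted from that with licorice. A gene is called here when it passed an adjusted p of 0.05 (edgeR quasi-likelihood test, Benjamini-Hochberg) both between the extracts at 500 µg/mL and in this difference of dose changes, with the same sign. Both tests use the 500 µg/mL libraries, so the second is a filter and not separate evidence. Levels are CPM, the usual scaling of a count by the total count of its library, and fold changes are licorice over angelica unless another pair is named.

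Plant extracts reach liver cells through several sensors. The aryl hydrocarbon receptor (AHR) binds flat aromatic molecules, moves to the nucleus with ARNT and switches on CYP1A1 and a small battery of genes for oxidation and conjugation. NRF2 is held down by KEAP1 until reactive compounds modify KEAP1, after which it raises genes for glutathione synthesis, thioredoxin and carbonyl reduction. Bone morphogenetic proteins (BMPs) act through SMAD proteins on HAMP, which encodes hepcidin, the hormone that limits iron export, and on ID1, ID3 and SMAD7. In a bulk sample, fewer cells of a kind and less RNA per cell cannot be told apart.

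Total counts ran from 24.2 M to 33.4 M in the 12 libraries of the 2 extracts at 500 and 20 µg/mL, so that 3 counts correspond to 0.0899 to 0.124 CPM. Mitochondrially encoded genes took 8.9 to 11.6% of the counts with licorice and 8.96 to 10.1% with angelica at 500 µg/mL. The hepatocyte markers were all expressed, with ALB at 10300 to 11400 CPM with licorice and 14500 to 14900 CPM with angelica and HNF4A at 351 to 355 CPM with licorice and 331 to 350 CPM with angelica. PTPRC of blood cells, COL1A2 and DCN of fibroblasts, and SFTPA1 and KRT5 of other epithelia had 0 counts in all 6 libraries. The summed level of the 8 blood cell markers was 1530 to 1760 CPM with licorice and 1780 to 1810 CPM with angelica, nearly all of it LYZ, and that of the 8 fibroblast and stellate markers was 54.1 to 57.5 CPM with licorice and 72.2 to 74.9 CPM with angelica, nearly all of it ACTA2. CD68, a macrophage marker that other cells express too, went against the blood sum, with 68.8 to 78.1 CPM with licorice and 49.9 to 57.3 CPM with angelica. In the longer marker lists, 2 of 5 blood cell markers tested were called higher (CD68 and HBA1) and 0 lower. Of 4 fibroblast and stellate markers tested, 2 were called lower and 0 higher, where 3.85% and 2.95% of all genes were. The part of these markers in the results was not tested.

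At 500 µg/mL, 3236 of 16093 genes (20.1%) differed between the extracts, 1658 of them higher (10.3%) and 1578 lower (9.81%) with licorice, and 138 differed at least 2-fold. At 20 µg/mL, 30 genes (0.186%) differed, 11 higher (0.0684%) and 19 lower (0.118%), and none of them by 2-fold. Of the genes that differed at 500 µg/mL, 99.6% of the higher and 99.2% of the lower ones did not pass at 20 µg/mL. Since only 0.186% of all genes passed at 20 µg/mL, these shares say little about the genes that differed at 500 µg/mL. Of the 11 higher at 20 µg/mL, 5 were also higher at 500 µg/mL, where 10.3% of all genes were. Of the 19 lower at 20 µg/mL, 12 were also lower at 500 µg/mL, where 9.81% of all genes were, and 1 was higher. The plot of differences at both doses shows the contrast in size. The count at 20 µg/mL was unstable: it was 574 without angelica replicate 1, and 0 without licorice replicate 1 or angelica replicate 3. It was 1 without licorice replicate 2, 9 without licorice replicate 3 and 3 without angelica replicate 2.

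**Figure D1:**
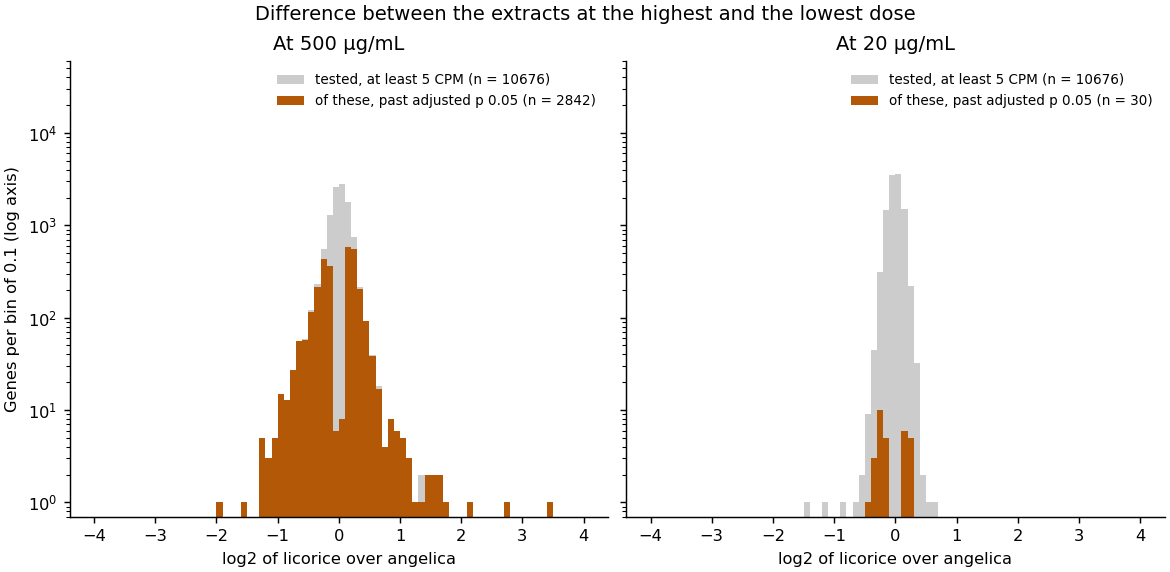
Histograms of the log2 difference of licorice over angelica for the 10676 genes with at least 5 CPM in a 500 µg/mL group, at 500 µg/mL (left) and 20 µg/mL (right), with genes per bin of 0.1 on a log axis. Of these genes, 2842 passed at 500 µg/mL and 30 at 20 µg/mL (coloured bars). The largest difference was 3.48 at 500 µg/mL and 1.47 at 20 µg/mL on the log2 scale.

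The difference of dose changes passed for 1220 genes (7.58%), 560 higher (3.48%) and 660 lower (4.1%), and 1095 genes (6.8%) were called by both tests, 475 higher (2.95%) and 620 lower (3.85%) with licorice. Of the 1095, 73 differed at least 2-fold. With 100 in place of 20 µg/mL as the lower dose, 433 genes passed in the difference of dose changes and 426 were called. As a comparison of the sets with other extracts, ginseng over peony at 20 µg/mL gave 0 genes with edgeR, 659 genes at an unadjusted p under 0.05 and 1 gene with DESeq2.

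Most called genes moved with licorice. From 20 to 500 µg/mL, 3428 genes (21.3%) changed with licorice and 196 (1.22%) with angelica. Of the 475 genes called higher, 414 (87.2%) rose over the doses with licorice and did not pass with angelica, 25 rose with both, and 10 fell with angelica and did not pass with licorice. Of the 620 called lower, 568 (91.6%) fell with licorice and did not pass with angelica, and 20 fell with both. The 2 dose changes share no libraries. They had 61 risers in common, which is 3.45% of the licorice risers and 70.9% of the angelica risers. Of all genes tested, 0.534% rose with angelica and 11% with licorice. They had 72 genes in common that fell, 4.34% of those with licorice and 65.5% of those with angelica. Of all genes tested, 0.684% fell with angelica and 10.3% with licorice. Without single libraries of angelica at 500 or 20 µg/mL, the angelica count lay between 110 (without replicate 3 at 20 µg/mL) and 217 (without replicate 1 at 20 µg/mL). It was 124, 122 and 124 without replicate 1, 2 and 3 at 500 µg/mL and 126 without replicate 2 at 20 µg/mL.

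**Figure D2:**
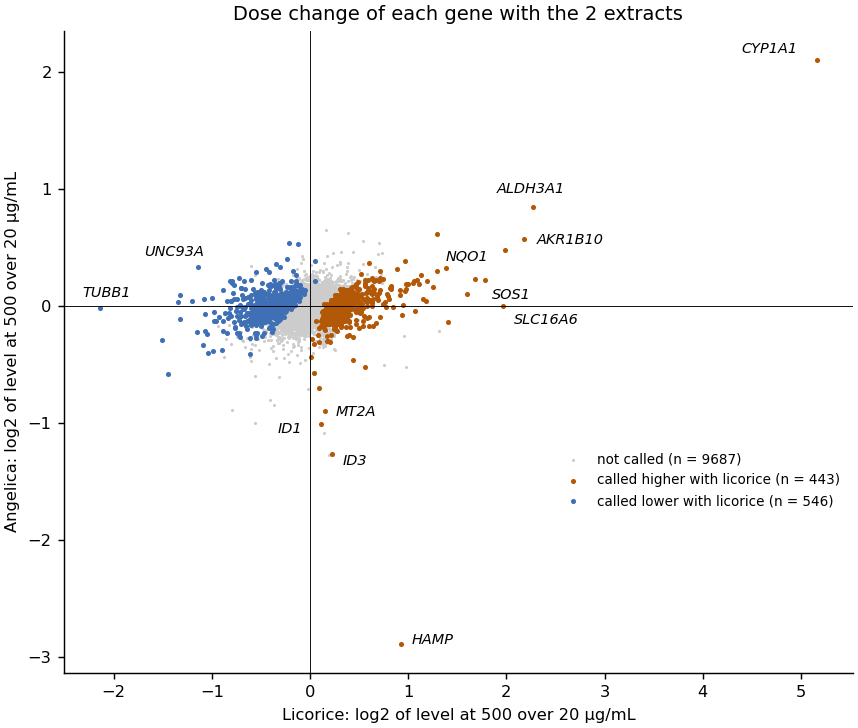
Dose change (log2 of the level at 500 over 20 µg/mL) with licorice on the x axis and with angelica on the y axis, 1 point per gene with at least 5 CPM in a 500 µg/mL group. Orange points are the 443 genes called higher and blue points the 546 called lower with licorice, and 9687 genes not called are grey. Most coloured points lie along the x axis, while HAMP, ID1, ID3 and MT2A lie below it.

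CYP1A1, the cytochrome P450 that serves as the usual readout of AHR, had 703, 728 and 741 CPM with licorice at 500 µg/mL and 114, 108 and 101 CPM with angelica. Vehicle libraries had 11.6 to 13.6 CPM. Means rose over the doses with both extracts, and licorice had means of 20.1, 80.5 and 724 CPM at 20, 100 and 500 µg/mL, and angelica had 25.4, 47.0 and 108 CPM. At 500 µg/mL the other extracts had means of 43.1 CPM (peony), 24.6 CPM (Poria Cocos), 16.9 CPM (ginseng) and 16.2 CPM (Atractylodis Rhizoma). Licorice was 6.61-fold above angelica at 500 µg/mL (log2 2.72). At 20 µg/mL the order was the other way round, at a log2 difference of -0.34 (adjusted p = 0.0489, edgeR). That call did not hold without licorice replicate 1, without angelica replicate 3 or with only the libraries compared, where 0 genes passed at 20 µg/mL. The dose changes differed by 3.06 on the log2 scale.

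CYP1A1 lies at chr15:74719542-74725610 on the minus strand (GRCh38). The 250 bases before its start in RefSeq (GRCh38.p14, chr15:74725529-74725778, printed on the gene's strand) are shown because AHR and ARNT bind the core GCGTG. It occurs once, 57 bases before the start, in capitals:

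CYP1A1: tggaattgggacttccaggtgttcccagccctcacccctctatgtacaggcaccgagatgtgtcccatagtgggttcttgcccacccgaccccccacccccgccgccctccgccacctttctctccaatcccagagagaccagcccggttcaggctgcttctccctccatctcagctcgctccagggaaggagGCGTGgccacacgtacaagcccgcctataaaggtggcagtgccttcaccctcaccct

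GCGTG was sought on both strands. Windows of this length hold it in 32.2% of 35116 RefSeq promoters and in 36.2% of 27305 genes with a promoter entry. Of the AHR targets tested, 16 had an entry and 13 held the core, among them AHRR, ABCG2 and TIPARP. A match describes the letters in the window and is not a site.

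The other AHR targets moved in part with CYP1A1. Of 19 tested, CYP1A1 included, 7 were called higher and 0 lower, where 2.95% of all genes were called higher. The median log2 difference was 0.29 against 0.001 over all genes tested. CYP1A1 counts in the 7 and in the median, and since the pair was chosen by its level, its call adds no support. The others called were AHRR, ALDH3A1, ABCG2, NQO1, SLC7A5 and NFE2L2. ALDH3A1, an aldehyde dehydrogenase of the AHR battery, had 11.5, 11.3 and 11.8 CPM with licorice and 4.17, 4.21 and 3.4 CPM with angelica (log2 1.53, adjusted p = 9.89e-14). Every licorice library was above every angelica library, which naming by size required. AHRR, the repressor that AHR induces against itself, had 2.09, 2.03 and 2.13 CPM with licorice and 0.48, 0.413 and 0.768 CPM with angelica (log2 1.89, adjusted p = 5.32e-08). AHRR did not pass over the doses with angelica (log2 0.05, adjusted p = 0.984), whereas ALDH3A1 rose with both extracts, by 2.27 with licorice and 0.85 with angelica. ABCG2, a drug efflux pump, had 21.3, 22.1 and 22.0 CPM with licorice and 15.2, 14.6 and 15.6 CPM with angelica (log2 0.50, adjusted p = 5.64e-10). With 100 in place of 20 µg/mL as the lower dose, ALDH3A1 and AHRR no longer passed in the difference of dose changes.

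CYP1A2 had 2.09, 2.24 and 2.55 CPM with licorice and 0.27, 0.33 and 0.283 CPM with angelica and differed at 500 µg/mL (log2 2.93, adjusted p = 3.51e-07). It is not called, since the difference of dose changes had an adjusted p of 0.141. Its mean level at 20 µg/mL was below that of 3 counts with both extracts. CYP1B1 had 0.452, 0.497 and 0.85 CPM with licorice and 0.06, 0.165 and 0.364 CPM with angelica. It passed at 500 µg/mL (adjusted p = 0.0126) and not in the difference of dose changes (adjusted p = 0.735). TIPARP, which AHR also targets, had 24.6, 24.0 and 24.6 CPM with licorice and 24.2, 21.8 and 21.9 CPM with angelica and did not pass (log2 0.09, SE 0.056, adjusted p = 0.316). These members thus differed widely in size of difference. CYP3A4, the main drug-metabolising P450 of liver and a PXR target, had 0.193 to 0.497 CPM with licorice and 0.18 to 0.537 CPM with angelica (log2 -0.25, adjusted p = 0.763). Of 12 PXR and CAR targets tested, 2 were called higher and 0 lower, where 2.95% of all genes were called higher and 3.85% lower. UGT1A1, which conjugates bilirubin, had 38.4, 41.1 and 37.8 CPM with licorice and 23.9, 24.7 and 23.7 CPM with angelica. ABCC2, an efflux pump, had 455, 476 and 493 CPM with licorice and 375, 357 and 368 CPM with angelica. UGT1A genes share exons, and RSEM divides the shared reads, so the level of UGT1A1 alone is uncertain.

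**Figure D3:**
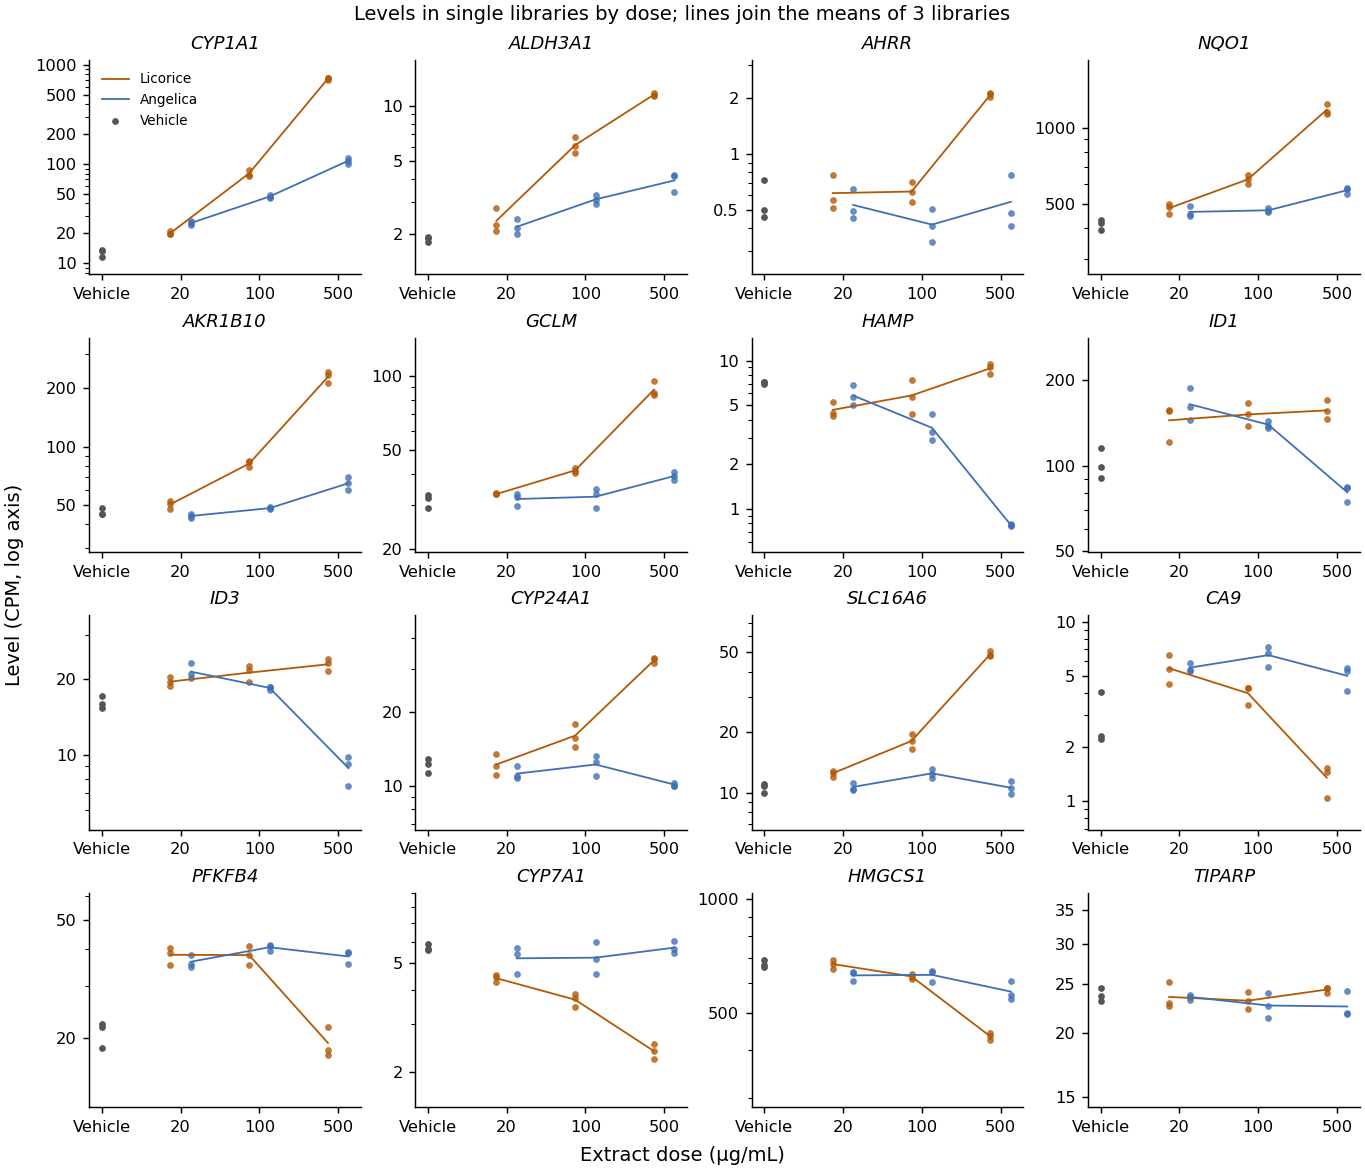
CPM (log axis) of 16 genes in each library of vehicle and of licorice (orange) and angelica (blue) at 20, 100 and 500 µg/mL, with lines through the means of 3 libraries. CYP1A1 rises with both extracts to 724 CPM with licorice and 108 CPM with angelica, HAMP, ID1 and ID3 fall with angelica, and TIPARP is level.

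NRF2 targets were the list with the largest share of called genes among those tested. Of 32 members, 25 were called higher and 0 lower, where 2.95% of all genes were called higher, and the median log2 difference at 500 µg/mL was 0.45. Over the doses, 30 of 32 rose with licorice, by a median of 0.60, where 11% of all genes rose. With angelica 12 of 32 rose, by a median of 0.10, where 0.534% of all genes rose. AKR1B10, an aldo-keto reductase, had 212, 234 and 243 CPM with licorice and 69.7, 60.2 and 64.8 CPM with angelica (log2 1.80, SE 0.056, adjusted p = 2.59e-30). The lowest licorice library was far above the highest angelica library. GCLM, the modifier subunit of the enzyme that limits glutathione synthesis, had 83.3, 85.1 and 94.7 CPM with licorice and 41.0, 37.8 and 39.3 CPM with angelica (log2 1.13, adjusted p = 6.3e-24). NQO1, a quinone reductase that both NRF2 and AHR induce, had 1160, 1140 and 1240 CPM with licorice and 573, 574 and 547 CPM with angelica (log2 1.04, adjusted p = 1.35e-24). All 3 genes rose over the doses with both extracts. In each the groups did not overlap at 500 µg/mL, which naming by size required of AKR1B10 and GCLM.

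TXNRD1, thioredoxin reductase, had 354, 374 and 377 CPM with licorice and 184, 181 and 181 CPM with angelica, near the 181 to 188 CPM of vehicle (log2 1.00, adjusted p = 6.45e-26). Over the doses TXNRD1 rose with both extracts, by 1.05 on the log2 scale with licorice and by 0.19 with angelica (adjusted p = 0.00331, edgeR). SLC7A11, the cystine importer that feeds glutathione synthesis, had 66.1, 62.1 and 64.2 CPM with licorice and 31.0, 25.5 and 30.3 CPM with angelica (log2 1.12, adjusted p = 1.37e-16). It rose over the doses with licorice (log2 0.95, adjusted p = 2.73e-14) and had a log2 change of 0.01 with angelica (adjusted p = 0.994). SRXN1, sulfiredoxin, rose by 1.13 with licorice and by 0.27 with angelica. AKR1C2 had 622, 641 and 685 CPM with licorice and 237, 221 and 219 CPM with angelica (log2 1.5, adjusted p = 2.05e-21). AKR1C1, AKR1C2 and AKR1C3 are close paralogs, and RSEM divides reads they share, so their single levels are uncertain. Whether AKR1B10 shares reads with other genes was not examined. HMOX1, heme oxygenase, was among the members not called, with TRIM16L, NQO2, ABCC4, GPX2, AKR1C3 and CES1. HMOX1 had 90.4, 93.7 and 93.2 CPM with licorice and 89.9, 93.9 and 83.9 CPM with angelica (log2 0.03, adjusted p = 0.769), and these groups overlapped. It rose over the doses with licorice (log2 0.29, adjusted p = 2.45e-05) and passed in the difference of dose changes (log2 0.24, adjusted p = 0.0369).

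GCLM lies at chr1:93885205-93909456 on the minus strand (GRCh38). The 250 bases before its RefSeq start (GRCh38.p14, chr1:93909431-93909680, printed on the gene's strand) are shown because NRF2 binds the antioxidant response element, here sought as TGACNNNGC on both strands. The capitals mark the match, which reads on the opposite strand and lies 34 bases before the start:

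GCLM: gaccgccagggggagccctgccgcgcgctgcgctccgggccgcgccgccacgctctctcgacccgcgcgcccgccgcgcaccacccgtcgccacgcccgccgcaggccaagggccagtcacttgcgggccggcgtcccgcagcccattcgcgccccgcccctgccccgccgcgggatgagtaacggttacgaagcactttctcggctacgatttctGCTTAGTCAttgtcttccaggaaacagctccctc

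This motif occurs in 10.9% of the 35116 promoters and in 13.2% of 27305 genes. Of the NRF2 targets tested, 23 had an entry and 6 held it: GCLM, TXNRD1, PGD, ABCC4, EPHX1 and GPX2.

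**Figure D4:**
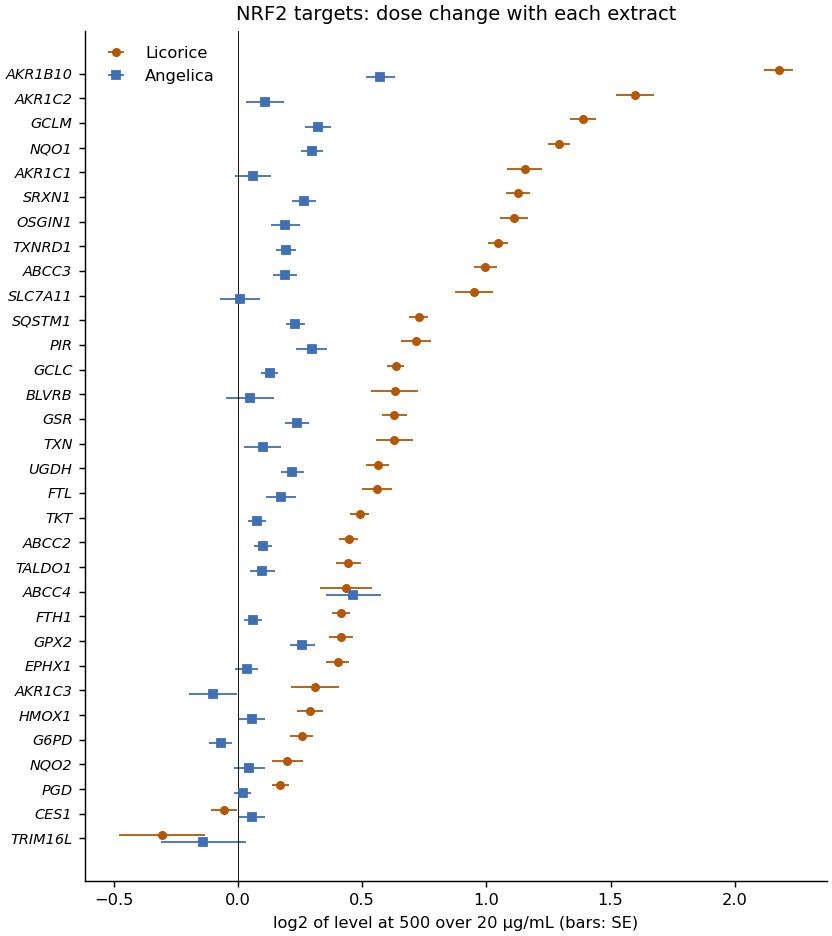
Log2 of the level at 500 over 20 µg/mL (x axis, bars SE) of each NRF2 target tested (rows), with licorice as orange circles and angelica as blue squares. Licorice lies right of 0 for all members but CES1 and TRIM16L, up to 2.18 for AKR1B10, whereas angelica reaches 0.57 for that gene.

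Of 23 targets of ATF4, the factor that answers amino acid shortage, 10 were called higher and 1 lower with licorice, where 2.95% of all genes were called higher, at a median log2 difference of 0.134. GDF15, a stress hormone, had 377, 371 and 366 CPM with licorice and 227, 235 and 214 CPM with angelica (log2 0.70, adjusted p = 3.59e-13). ASNS, asparagine synthetase, had 66.0, 67.8 and 69.1 CPM with licorice and 46.1, 44.5 and 45.1 CPM with angelica (log2 0.56, adjusted p = 8.61e-14). In both genes all licorice libraries were above all angelica libraries, and nearly all called genes lacked overlap. Of 20 amino acid and osmolyte transporters, 7 were called higher and 3 lower, where 2.95% and 3.85% of all genes were. Their median was 0.105. SLC16A6, of the monocarboxylate transporter family, had 50.8, 48.3 and 47.8 CPM with licorice and 10.6, 11.4 and 9.86 CPM with angelica, at the vehicle level of 9.94 to 11.1 CPM (log2 2.18, adjusted p = 8.25e-31). SLC1A5, a glutamine carrier, had 259, 271 and 275 CPM with licorice and 190, 196 and 190 CPM with angelica. SLC6A12, the betaine carrier, was lower, with 5.05, 5.3 and 5.14 CPM with licorice and 11.2, 10.6 and 10.2 CPM with angelica (log2 -1.07, adjusted p = 1.26e-12).

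Other large rises with licorice fell outside these pathways. SOS1, the exchange factor that loads RAS with GTP, had 303, 285 and 302 CPM with licorice and 98.8, 93.3 and 94.0 CPM with angelica (log2 1.62, adjusted p = 5.84e-29). CYP24A1, which degrades active vitamin D, had 31.6, 32.8 and 33 CPM with licorice and 10.3, 10.0 and 9.94 CPM with angelica (log2 1.66, adjusted p = 5.84e-24). Angelica at 500 µg/mL lay close to the vehicle mean for CYP24A1, which was 12.1 CPM. AQP3, a water and glycerol channel, had 7.83, 9.31 and 9.55 CPM with licorice and 3.39, 2.89 and 3.31 CPM with angelica (log2 1.44, adjusted p = 1.86e-11). CPLX2, complexin, which regulates vesicle fusion, had 422, 418 and 401 CPM with licorice and 177, 173 and 164 CPM with angelica (log2 1.25, adjusted p = 2.33e-28). Of 28 early growth factor genes and ERK feedback genes, 5 were called higher and 0 lower, where 2.95% and 3.85% of all genes were. MYC had 198, 193 and 198 CPM with licorice and 139, 154 and 144 CPM with angelica (log2 0.41, adjusted p = 4.91e-08).

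HAMP showed the largest difference among the genes named by size, and its level changed with both extracts. It met the 5 CPM that naming by size required with licorice only. It had 8.07, 9.52 and 9.04 CPM with licorice and 0.78, 0.785 and 0.768 CPM with angelica, against 6.97 to 7.22 CPM in vehicle. All licorice libraries were above vehicle and all angelica libraries below it. The difference was 11.2-fold (log2 3.48, SE 0.204, adjusted p = 4.27e-19). Mean HAMP with angelica was 5.81, 3.52 and 0.777 CPM at 20, 100 and 500 µg/mL, a fall of 7.38-fold from the lowest to the highest dose (log2 -2.88, adjusted p = 3.55e-14). With licorice it was 4.65, 5.82 and 8.88 CPM, a rise of 0.92 on the log2 scale (adjusted p = 5.06e-06).

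The BMP targets ID1, ID3 and SMAD7 fell over the doses with angelica as well. ID1 and ID3 encode inhibitors of helix-loop-helix factors. ID3 had 21.6, 23.2 and 24.1 CPM with licorice and 9.77, 9.21 and 7.52 CPM with angelica (log2 1.35, adjusted p = 3.46e-18). It fell by 1.26 on the log2 scale over the doses with angelica and rose by 0.22 with licorice (adjusted p = 0.0306). ID1 had 146, 155 and 169 CPM with licorice and 83.2, 83.9 and 74.7 CPM with angelica (log2 0.93, adjusted p = 3.04e-08). It fell by 1.01 with angelica, and with licorice it had a log2 change of 0.11 (adjusted p = 0.56). SMAD7, the inhibitory SMAD that BMP and TGF beta signals induce, had 6.68, 6.37 and 7.11 CPM with licorice and 4.23, 4.34 and 4.81 CPM with angelica (log2 0.58, adjusted p = 4.32e-06). In these genes the 2 groups did not overlap, which naming by size required of ID3. Of 15 BMP and iron genes tested, 6 were called higher and 1 lower, where 2.95% and 3.85% of all genes were. With angelica 6 of the 15 fell over the doses, where 0.684% of all genes fell. FTH1 and FTL, the ferritin chains, belong to the 6 called higher and are NRF2 targets too. FTH1 rose by 0.42 on the log2 scale with licorice and had a change of 0.06 with angelica (adjusted p = 0.592). Transferrin, TF, was the member called lower.

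HAMP lies at chr19:35280716-35285143 on the plus strand (GRCh38). The 250 bases before its RefSeq start (GRCh38.p14, chr19:35282278-35282527, plus strand) are shown because SMADs bind GGCGCC in BMP-responsive elements. The motif reads the same on both strands and occurs once, in capitals, 105 bases before the start:

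HAMP: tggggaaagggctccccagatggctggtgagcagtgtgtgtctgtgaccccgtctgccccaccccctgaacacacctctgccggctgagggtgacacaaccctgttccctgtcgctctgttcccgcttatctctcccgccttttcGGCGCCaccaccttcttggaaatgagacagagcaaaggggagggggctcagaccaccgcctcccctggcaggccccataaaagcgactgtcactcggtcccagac

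It occurs in 16.4% of the 35116 promoters and in 19.0% of 27305 genes. Of the BMP and iron genes tested, 13 had an entry and 3 held it, HAMP, TFRC and TF. TFRC was not called.

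Metallothioneins, which bind zinc and copper, moved with both extracts. Of 11 metallothionein and zinc genes, 2 were called higher and 1 lower, where 2.95% of all genes were called higher and 3.85% lower. Over the doses 7 of the 11 fell with licorice and 7 with angelica, where 10.3% of all genes fell with licorice and 0.684% with angelica. MT2A had 570, 496 and 527 CPM with licorice and 304, 321 and 289 CPM with angelica (log2 0.78, adjusted p = 3.48e-06). It fell by 0.89 on the log2 scale over the doses with angelica and had a change of 0.15 with licorice (adjusted p = 0.443). MT1F fell by 0.79 with licorice and by 0.89 with angelica and was not called. The MT1 genes are near-identical, and their single levels are uncertain.

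Of 21 genes for proteins that hepatocytes secrete, 0 were called higher and 10 lower with licorice, where 3.85% of all genes were called lower, at a median log2 difference of -0.33. ALB, albumin, had 10300, 11400 and 11300 CPM with licorice and 14600, 14900 and 14500 CPM with angelica (log2 -0.44, adjusted p = 1.04e-08). VTN, vitronectin, had 164, 173 and 169 CPM with licorice and 259, 269 and 260 CPM with angelica (log2 -0.66, adjusted p = 5.13e-14). PLG, plasminogen, had 66.0, 66.3 and 69.5 CPM with licorice and 92.6, 94.4 and 93.9 CPM with angelica. These groups did not overlap. Over the doses 15 of the 21 fell with licorice and 0 with angelica, where 10.3% and 0.684% of all genes fell. Of 16 acute phase genes, 8 were called lower and 2 higher, where 3.85% and 2.95% of all genes were. The fibrinogen chains FGA and FGB were among the lower. FGA had 2260, 2350 and 2410 CPM with licorice and 3170, 3130 and 3210 CPM with angelica (log2 -0.46, adjusted p = 8.67e-15). The 2 called higher were HAMP and IL6R, a chain of the interleukin 6 receptor. Of 19 liver transcription factors, 1 was called higher (TBX3) and 3 lower, where 2.95% and 3.85% of all genes were. Counts this small in 19 genes are not read as a result about the list. FOXA3 and NR1H4 were among the lower. With 100 µg/mL as the lower dose, these 2 no longer passed in the difference of dose changes. Of 15 NF-kB targets, 0 were called higher and 6 lower, where 2.95% and 3.85% of all genes were. Among the 6, BIRC3 no longer passed at 500 µg/mL in any of 6 fits without 1 library. Its difference of dose changes no longer passed with ginseng over peony as the set difference. CFB no longer passed in the difference of dose changes with 100 µg/mL as the lower dose. TNFAIP3, a brake on NF-kB, had 42.5, 46.1 and 43.1 CPM with licorice and 57.4, 62.9 and 56.3 CPM with angelica (log2 -0.45, adjusted p = 1.37e-10).

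Of 14 genes of bile acid synthesis and FXR tested, 7 were called lower and 1 higher with licorice, at a median log2 difference of -0.28. Over all genes, 3.85% were called lower and 2.95% higher. CYP7A1, which sets the pace of bile acid production, had 2.54, 2.24 and 2.4 CPM with licorice and 5.64, 5.45 and 6.02 CPM with angelica, at the vehicle mean of 5.69 CPM (log2 -1.27, SE 0.121, adjusted p = 7.67e-12). AKR1D1, a steroid reductase of the pathway, had 13.2, 14.9 and 15.0 CPM with licorice and 29.5, 27.7 and 32.1 CPM with angelica (log2 -1.07, adjusted p = 1.54e-19). BAAT, which joins bile acids to glycine and taurine, had 5.43, 6.66 and 6.11 CPM with licorice and 10.9, 11 and 11.8 CPM with angelica (log2 -0.92, adjusted p = 1.92e-10). In all 3 genes the highest licorice library was below the lowest angelica library, which naming by size required of CYP7A1 and AKR1D1. NR1H4, the bile acid receptor FXR, was called lower too (log2 -0.32, adjusted p = 6.4e-06).

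Of 24 cholesterol genes, 10 were called lower and 1 higher, where 3.85% and 2.95% of all genes were. Over the doses 22 of the 24 fell with licorice and 14 with angelica, where 10.3% of all genes fell with licorice and 0.684% with angelica. HMGCS1, which makes the precursor of mevalonate, had 425, 436 and 445 CPM with licorice and 608, 547 and 559 CPM with angelica (log2 -0.41, adjusted p = 2.46e-14). It fell over the doses by 0.64 on the log2 scale with licorice and by 0.13 with angelica. Of 18 genes of fatty acid and triglyceride synthesis, 5 were called lower and 1 higher. Of 21 genes of fatty acid oxidation, 4 were called lower and 1 higher. Against 2.95% of all genes, the 1 called higher in each list is not read as a result.

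Of 29 hypoxia and glycolysis genes, 0 were called higher and 10 lower, where 2.95% and 3.85% of all genes were. The median was -0.22. CA9, a carbonic anhydrase raised by hypoxia, had 1.46, 1.53 and 1.04 CPM with licorice and 5.55, 5.33 and 4.08 CPM with angelica (log2 -1.91, adjusted p = 1.95e-08). PFKFB4, which makes the activator of phosphofructokinase, had 18.2, 17.5 and 21.8 CPM with licorice and 38.6, 38.8 and 35.4 CPM with angelica (log2 -1.0, adjusted p = 2.27e-06). Vehicle had a mean of 2.85 CPM for CA9, between the groups, and of 20.8 CPM for PFKFB4, within the range of licorice. At 20 µg/mL both extracts were close to angelica at 500 µg/mL, with means of 5.50 CPM (licorice) and 5.54 CPM (angelica) for CA9 and of 38.1 CPM (licorice) and 36.1 CPM (angelica) for PFKFB4. PFKFB3, of the same family, had 3.62, 3.81 and 5.3 CPM with licorice and 11.5, 10.1 and 8.97 CPM with angelica (log2 -1.29, adjusted p = 0.00199), against a vehicle mean of 2.55 CPM. Its call in the difference of dose changes was lost without 1 library in 7 of 12 fits and with 100 µg/mL as the lower dose. TUBB1, a beta tubulin of platelets, had 2.23, 2.73 and 2.59 CPM with licorice and 9.44, 9.58 and 9.66 CPM with angelica, against 4.44 to 5.8 CPM in vehicle (log2 -1.95, adjusted p = 9.8e-07). At 20 µg/mL TUBB1 had means of 10.995 CPM with licorice and 9.72 CPM with angelica. PFKFB3 had means of 10.75 CPM (licorice) and 10.06 CPM (angelica) at that dose. From 20 to 500 µg/mL, TUBB1 changed by -2.14 on the log2 scale with licorice and by -0.01 with angelica. PFKFB3 changed by -1.35 with licorice and by 0.04 with angelica.

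Of 15 TGF beta and matrix genes, 4 were called lower and 1 higher with licorice, at a median log2 difference of -0.075. Over all genes, 3.85% were called lower and 2.95% higher. The genes that follow were named for the size of their difference, except DKK1, which was named as a Wnt target. UNC93A had 4.63, 5.17 and 5.45 CPM with licorice and 13.6, 16.5 and 12.5 CPM with angelica (log2 -1.5, adjusted p = 3.88e-21), and over the doses it fell by 1.14 with licorice and rose by 0.33 with angelica. TNS1, tensin of focal adhesions, had 4.24, 5.34 and 4.6 CPM with licorice and 11.2, 10.8 and 10.0 CPM with angelica (log2 -1.20, adjusted p = 9.76e-07). PDGFRB, a growth factor receptor, had 2.3, 2.44 and 2.67 CPM with licorice and 5.49, 5.54 and 4.89 CPM with angelica (log2 -1.13, adjusted p = 6.16e-11). In these 3 genes the groups did not overlap, which naming by size required. CHST15, a chondroitin sulfotransferase, had 14.8, 13.7 and 14.3 CPM with licorice and 32.3, 32.5 and 29.7 CPM with angelica (log2 -1.16). DKK1, a secreted Wnt inhibitor, had 49.0, 54.1 and 55.3 CPM with licorice and 102, 105 and 104 CPM with angelica (log2 -1.0, adjusted p = 5.16e-15). ITIH1, a hyaluronan-binding plasma protein, and UBD, a ubiquitin-like modifier, had log2 differences of -1.12 and -1.08. ACSL3P1, annotated as a pseudogene of ACSL3, had a log2 difference of -1.27, and its reads may belong to ACSL3.

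Proliferation and housekeeping lists held no called genes. Of 33 S phase genes, 30 mitosis genes, 37 ribosomal protein genes, 16 interferon-stimulated genes and 13 mitochondrially encoded genes, 0 were called in either direction. Only 6.8% of all genes were called, so lists of this size would hold few, and no result is read from their absence. At 500 µg/mL alone, 4 S phase genes were higher and 4 lower, where 10.3% and 9.81% of all genes were. The plot of called shares by list holds the lists with at least 5 members tested, ordered by the share called higher minus the share called lower.

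**Figure D5:**
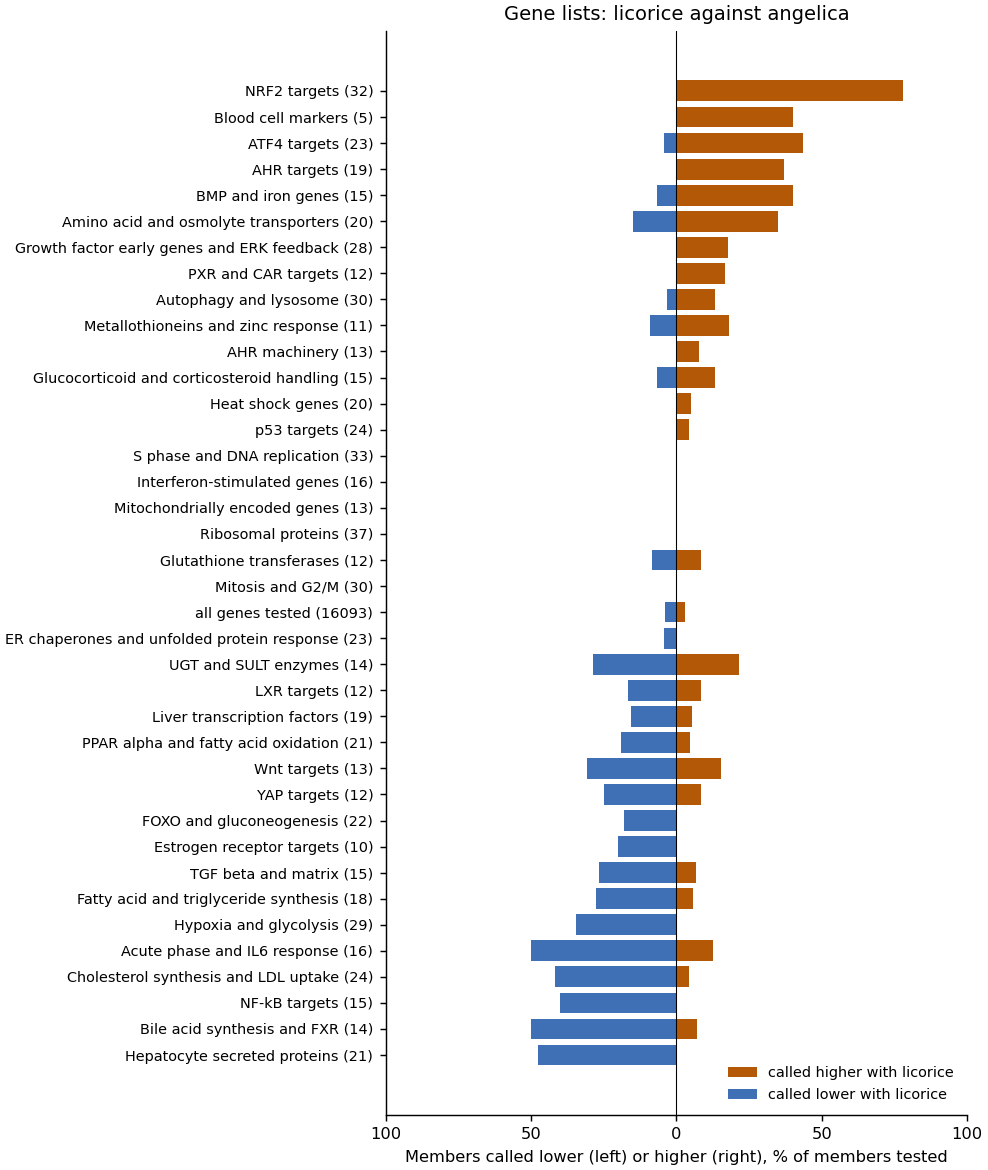
Share of the tested members of each gene list (number tested in brackets) called higher (orange, to the right) or lower (blue, to the left) with licorice, in percent. NRF2 targets stand at 25 of 32 higher and 0 lower, hepatocyte secreted proteins at 0 higher and 10 of 21 lower, and over all genes tested the shares are 2.95% and 3.85%.

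The genes that differed at 20 µg/mL were mostly small differences. MCM8, a helicase of DNA repair, had means of 96.8 CPM with licorice and 83.2 CPM with angelica at 20 µg/mL (log2 0.21, adjusted p = 0.0402) and differed by 0.23 at 500 µg/mL. PTPN11, the phosphatase SHP2, differed by 0.21 at 20 µg/mL and 0.22 at 500 µg/mL. These 2 genes had the same offset at both doses and were not called. DEPP1, a FOXO target, had means of 17.4 CPM with licorice and 23.8 CPM with angelica at 20 µg/mL (log2 -0.47, adjusted p = 0.0402), while at 500 µg/mL it had 12.2 to 14.5 CPM with licorice and 12.4 to 13.8 CPM with angelica (log2 0.01, adjusted p = 0.973). ESCO2 and ATP2B1 were higher and YPEL3 was lower with licorice at 20 µg/mL, with log2 differences of 0.29, 0.20 and -0.39. CEACAM16-AS1, an antisense RNA, had -0.38 at 20 µg/mL and -0.69 at 500 µg/mL, and whether reads were counted by strand is not given in the sources used here.

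IGFBP1 and G6PC1, genes that insulin lowers, each passed in 1 of the 2 tests, and both depended on the processing. IGFBP1 had 311, 373 and 393 CPM with licorice and 276, 238 and 241 CPM with angelica (log2 0.49, adjusted p = 0.0292), with an adjusted p of 0.105 in the difference of dose changes (log2 0.61). Its difference at 500 µg/mL no longer passed in 4 of 6 fits without 1 library, those without licorice replicate 2 or 3 or angelica replicate 2 or 3. Its difference of dose changes passed with either replicate block, with no filter, with only the libraries compared and with ginseng over peony as the set difference. G6PC1, glucose 6-phosphatase, had 17.1, 16.2 and 16.6 CPM with licorice and 13.1, 13.7 and 14.4 CPM with angelica (log2 0.26, adjusted p = 0.051), and passed in the difference of dose changes (log2 0.49, adjusted p = 0.0161). It passed at 500 µg/mL with the DESeq2 Wald test, with a mean of 1 CPM or no filter, with only the libraries compared and with the block within each set. Its difference of dose changes no longer passed without angelica replicate 1 at 500 µg/mL or replicate 2 at 20 µg/mL. Of 22 FOXO and gluconeogenesis genes, 0 were called higher and 4 lower, where 2.95% and 3.85% of all genes were. PCK1 was among the lower, with 6.68, 7.49 and 7.58 CPM with licorice and 13.3, 14.4 and 14.2 CPM with angelica (log2 -0.97, adjusted p = 1.13e-09).

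At 100 µg/mL, 419 genes (2.6%) differed between the extracts, 185 higher (1.15%) and 234 lower (1.45%) with licorice. The count was 128 without licorice replicate 1, 259 without licorice replicate 2, 258 without angelica replicate 1 and 132 without angelica replicate 3. CYP1A1 differed by 0.78 on the log2 scale and HAMP by 0.72 (adjusted p = 0.00803).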

How the data were processed

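RNA of HepG2 cells was sequenced after 24 h with a directional kit and paired-end reads on an MGI instrument, per the labels' protocols. The authors used FastQC 0.11.9, Trim Galore 0.6.5, STAR 2.7.3a and RSEM 1.3.3 with hg38, per the submitters' processing notes. Per gene and library, the authors deposited expected counts from RSEM, of which 76.1% of the values above 0 are whole, and they were rounded here. The annotation release is not given in the sources used here. Of 270 columns, the 60 named in the labels were used and 210 were not. Symbols and GRCh38 coordinates came from Ensembl identifiers matched to GENCODE v29 and a table of gene names (56558 of 60675 genes had a symbol, and the rest held 0.117% of counts).

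All 60 libraries (20 groups of 3, 20.9 to 33.4 M counts) entered 1 edgeR 4.0.16 model (R 4.3.3, limma 3.58.1) that gives each group a mean, scaled by TMM (factors 0.926 to 1.03), after filterByExpr (minimum count 10, total 15) and glmQLFTest, with Benjamini-Hochberg adjustment within a comparison at 0.05. CPM is the count over the library total. Replicate pairs differed by more than sampling noise (chi-square per degree of freedom of at least 2.63). Counts are not length-normalised, so levels are compared within a gene. The steps were tested on simulated data.

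The groups compared, the gene lists and the rule for named genes were chosen with earlier results of these data known. The rule took the 12 largest differences each way among called genes with a symbol and no overlap of libraries. These needed a mean of at least 5 CPM with either extract at 500 µg/mL, so a gene could enter by its higher group alone. HAMP, ALDH3A1, AQP3, TUBB1, PFKFB3, CYP7A1, TNS1 and PDGFRB entered in that way. The rule further took 4 each way at 20 µg/mL, a fixed set of genes and up to 4 members of each list. Further list members were chosen for naming after their values were seen. Some genes that the rule names are not reported here. Alternatives were DESeq2 1.42.0 size factors and its Wald test, a mean of 1 CPM or no filter, only the libraries compared, replicate blocks, other references for the set difference and leaving out each library.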

Additional observations from a re-analysis of the deposited data

Results flagged for a closer look

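The change from 20 to 500 µg/mL passed in opposite directions with the 2 extracts for 12 of the called genes, which rose with licorice and fell with angelica in 5 and did the reverse in 7. Passing in the difference of dose changes (edgeR) is part of the call, so it was fixed by the choice of these genes and adds no support. The first 5 were HAMP (difference of 3.81 on the log2 scale), ID3 (1.48), S100P (1.09), FST (0.90) and PIM1 (0.70). FST encodes follistatin, which binds activins and BMPs. It averaged 70.1 ± 4.63 CPM with licorice and 41.6 ± 1.27 CPM with angelica at 500 µg/mL (SD, n = 3 libraries each). The other 7 were EEIG1 (-0.36), TIMP3 (-0.60), CLDN2 (-0.64), TAGLN (-0.71), SCGN (-0.77), AKR1D1 (-1.02) and UNC93A (-1.47). TIMP3, an inhibitor of matrix metalloproteinases, averaged 240.3 ± 8.37 CPM with licorice and 359.3 ± 8.62 CPM with angelica at 500 µg/mL. S100P, FST, PIM1, EEIG1, TIMP3, CLDN2 and SCGN lie outside the rule for named genes and were chosen after their values were seen. Groups of 3 libraries are too small to test for a single library that stands apart.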

How the results depend on the processing

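The count of genes differing at 500 µg/mL lay between 2745 (no filter) and 3649 (replicate block within each set) and between 2462 and 2738 when a library was left out. The count called by both tests was 818 to 1549 except with 100 µg/mL as the lower dose, which gave 426 (433 in the difference of dose changes), and 894 to 1014 without a library. The difference of dose changes gave 990 to 1279 genes and the licorice dose change 2738 to 2895 genes without a library. With only the libraries compared, the difference of dose changes gave 853 genes. At 20 µg/mL the 30 genes became 222 with the DESeq2 Wald test, 64 with a mean of 1 CPM, 419 with no filter and 0 with only the libraries compared, and 0 to 574 without a library. The angelica dose change gave 315 genes with no filter, 53 with only the libraries compared, and 110 to 217 without a library. Ginseng over peony at 20 µg/mL gave 1 with DESeq2, 91 with no filter, 3 with only the libraries compared and 0 in each fit without a library. Licorice over angelica at 100 µg/mL gave 128 to 327 without a library.

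Same-numbered licorice and angelica libraries had correlations of -0.076, 0.049 and 0.059 at 500 µg/mL and of 0.421, -0.238 and 0.228 at 20 µg/mL, so not every pair passed 0.1 and the numbers were not taken to pair them. With the replicate block, 3354 genes differed at 500 µg/mL, 63 at 20 µg/mL and 1155 were called. With the block within each set, 263 differed at 20 µg/mL, 311 changed with angelica dose, 665 differed at 100 µg/mL and 1349 were called.

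Values near 0 turned sign for 8 genes that had not passed in that test. With ginseng over peony as the set difference, the difference of dose changes was 0.127 for ESCO2, -0.207 for YPEL3 and -0.032 for TIPARP, and with 100 µg/mL it was -0.076 for YPEL3. Without a library it ran from -0.019 to 0.067 for MCM8, from -0.033 to 0.054 for PTPN11 and from -0.013 to 0.169 for YPEL3. At 500 µg/mL the difference then ran from -0.056 to 0.074 for DEPP1, from -0.052 to 0.029 for ATP2B1 and from -0.787 to 0.15 for CYP3A4. With 100 µg/mL as the lower dose, 36 calls of named genes in the difference of dose changes were lost. The causes were not tested. Depth limits genes near 0.1 CPM, such as CYP1A2 at 20 µg/mL.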
